A study of Rattus norvegicus with 6 samples.

Results

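The renal amino acid transporters described here are the 9 genes Slc3a1, Slc7a9, Slc7a13, Slc6a19, Slc6a20, Slc1a1, Slc3a2, Slc7a7 and Slc7a8, read in the renal cortex of rats given N-nitrosodimethylamine (NDMA) or water. They were chosen by name, with earlier results of these data known. Their probes are those whose RefSeq transcript accession belongs to 1 of these genes. RefSeq lists Slc6a20 of the rat as Slc6a20a, the name used below. The 9 genes had 13 of the 61657 non-control probes on the array, 2 for each of 4 genes and 1 for each of the other 5. All 13 probes were well above background on all 6 arrays, and the 9 genes were among 31915 features tested, of which 12175 carried a RefSeq name.

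The treated group was 3 male Sprague-Dawley rats that received NDMA at 4 mg/kg/day for 4 weeks, and the control group was 3 male rats of the same strain that received water for 4 weeks. All were bought at 5 weeks of age, and each animal's cortex was hybridised to its own 1-colour Agilent array. NDMA is a nitrosamine that the body oxidises to an agent that methylates DNA. NDMA animal 1 and the 3 controls lay on slide 1, and NDMA animals 2 and 3 lay on slide 2, so the slide and the treatment overlap in part. The 75th percentile of the processed signal was 1310 and 1299 on the arrays of slide 2. On slide 1 it was 1053 for NDMA animal 1 and ran from 993.4 to 1045 for controls. Arrays of 1 group correlated at 0.992 to 0.995 and arrays of different groups at 0.985 to 0.990. All 20 markers of the proximal tubule listed for the check of the tissue were above background on all 6 arrays.

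The proximal tubule takes back nearly all the amino acids that the glomerulus filters. Carriers in the brush border, the side facing the urine, bring them into the cell, and exchangers in the basolateral membrane pass them on to the blood. Several of these carriers work only as pairs of a heavy subunit of the Slc3 family and a light subunit of the Slc7 family joined by a disulfide bond. Inherited defects of single members cause cystinuria, Hartnup disorder, lysinuric protein intolerance and dicarboxylic aminoaciduria in humans.

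None of the 9 genes passed the test between NDMA and control rats. By limma with Benjamini-Hochberg adjustment over all 31915 features, 0 of 9 had an adjusted p under 0.05, where 3.00% of all features did (2.52% higher and 0.476% lower in NDMA animals), and the lowest adjusted p among the 9 was 0.115. Over all probes 0 of the 13 passed, where 2.99% of probes did. The unadjusted p was under 0.05 for 3 of the 9 (Slc1a1, Slc3a1 and Slc7a7), against 18.8% of all features. All 9 differences lay below 0, where 58.7% of all features had a difference below 0, and their median was -0.19 on the log2 scale against -0.05 over all features. The groups did not overlap, with NDMA lower, for 4 of the 9 (Slc1a1, Slc3a1, Slc3a2 and Slc7a7), against 16.5% of all features. The other 5 overlapped. The median over the 9 genes of an animal's level minus the control mean was -0.16, -0.44 and -0.14 in NDMA animals 1 to 3, against 0.016, 0.096 and -0.076 in controls 1 to 3, so NDMA animal 2 was the lowest of the 6.

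In what follows, a level is the log2 of a probe's processed signal relative to the 75th percentile of its array, and a difference is the NDMA mean minus the control mean with its moderated standard error (SE, n = 3 per group) and 95% interval. Levels of different probes are not compared, because each probe has its own brightness.

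**Figure D1:**
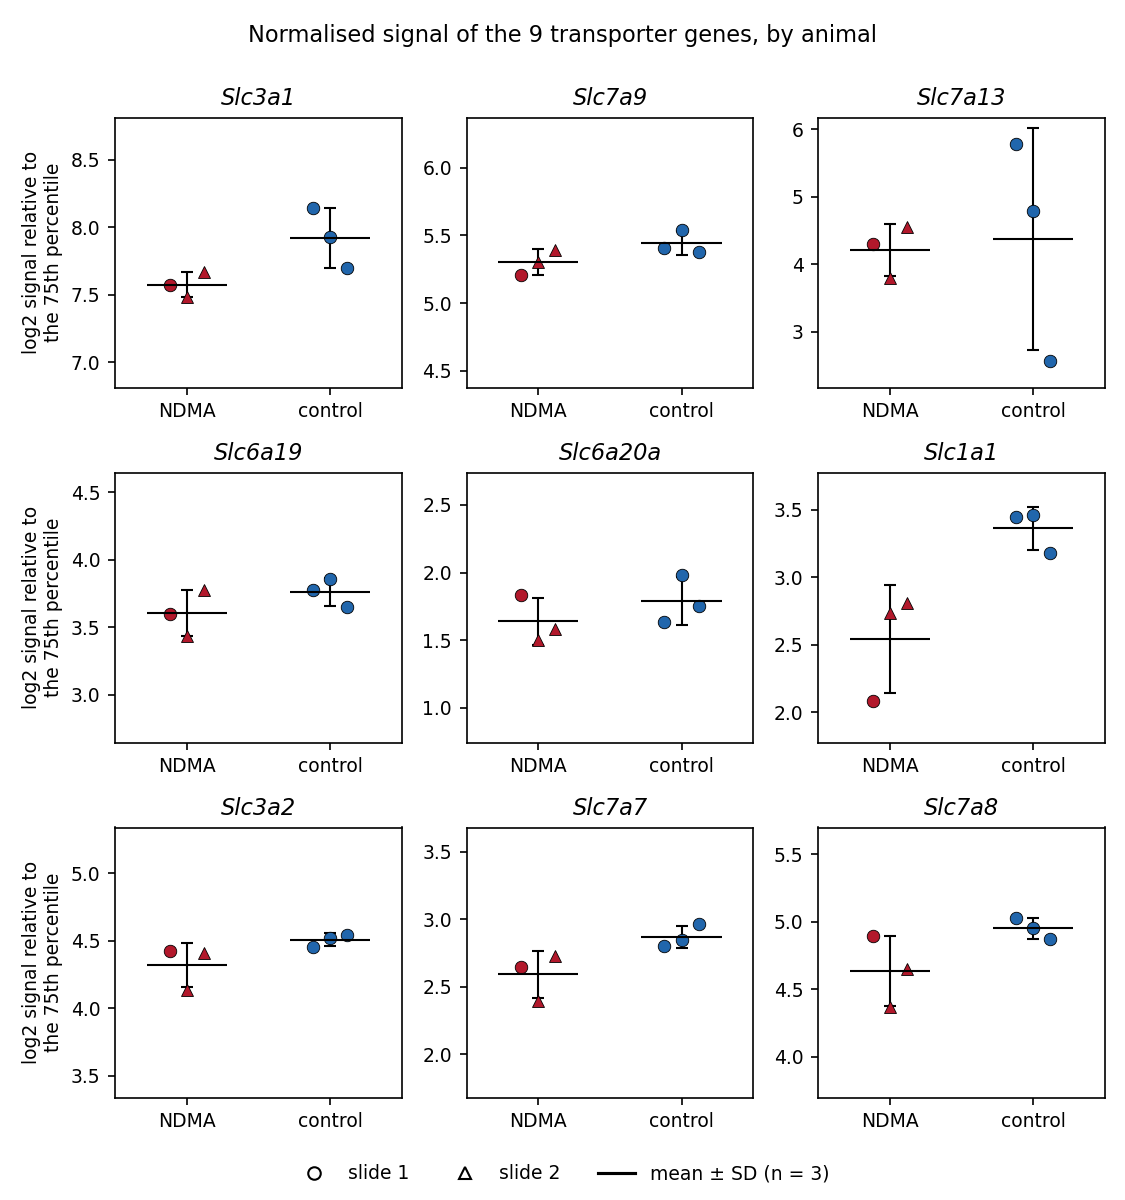
Each panel gives the log2 signal of 1 gene (its brightest probe) relative to the array's 75th percentile, with NDMA animals in red on the left and controls in blue on the right. Circles are arrays of slide 1 and triangles those of slide 2, lines and bars are the mean ± SD of 3 animals, and the vertical axis spans 2 log2 units in every panel but that of Slc7a13, where it spans 4. The groups of Slc1a1, Slc3a1, Slc3a2 and Slc7a7 do not overlap, and the controls of Slc7a13 are spread from 2.57 to 5.78.

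Slc1a1, the brush border carrier of glutamate and aspartate, had the difference farthest from 0 of the 9. Its level was 2.09, 2.74 and 2.81 in NDMA animals 1 to 3, against 3.45, 3.47 and 3.18 in controls 1 to 3. All 3 NDMA animals lay below all 3 controls, and NDMA animal 1 was the lowest. The difference was -0.82 ± 0.21 (interval -1.32 to -0.31), a level 1.76-fold lower in NDMA rats, with an unadjusted p of 0.00705 and a limma adjusted p of 0.115. The size of the difference depended in part on NDMA animal 1. It was -0.59 without that animal (limma adjusted p = 0.0864), which leaves only slide 2 animals in the treated group. On slide 1 alone it was -1.28, a value of NDMA animal 1 against the 3 controls.

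Slc3a1 encodes the heavy subunit that carries the light subunits Slc7a9 and Slc7a13 to the brush border, and its loss or that of Slc7a9 causes cystinuria. The brightest Slc3a1 probe had levels of 7.57, 7.48 and 7.67 in NDMA animals, against 8.14, 7.92 and 7.70 in controls. The NDMA animals lay below the controls, the gap between NDMA animal 3 and control 3 being small beside the range of either group. The difference was -0.35 ± 0.13 (interval -0.66 to -0.03, limma adjusted p = 0.233), or -0.21 with quantile normalisation. The other Slc3a1 probe had 6.04, 5.83 and 6.25 in NDMA animals and 6.76, 6.53 and 6.23 in controls, so that NDMA animal 3 overlapped control 3. Its difference was -0.47 ± 0.17 (adjusted p over all probes 0.224), and both probes placed control 1 highest and NDMA animal 2 lowest.

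Slc7a9, the light subunit that exchanges cystine and basic amino acids for neutral ones, had levels of 5.20, 5.30 and 5.40 in NDMA animals and 5.41, 5.54 and 5.38 in controls. The groups overlapped, and the animals of 1 group lay close together. The difference was -0.14 ± 0.09 (interval -0.36 to 0.08, limma adjusted p = 0.439). It was -0.056 with quantile normalisation, -0.094 without NDMA animal 1, -0.093 without control 2 and -0.24 for NDMA animal 1 against the controls of its slide.

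The heavy subunits Slc3a1 and Slc3a2 show how unlike the start regions of these genes are, one made mostly in kidney and gut epithelium and the other in nearly all cells. The 250 bases before the start of each are printed from RefSeq (assembly GRCr8), with matches to short motifs in capitals. These are CAAAGTCCA, a form of the site of the nuclear receptor HNF4A, and the TATA motif TATAAA, each searched on both strands.
Slc3a1, chr6:15394750-15394999, minus strand: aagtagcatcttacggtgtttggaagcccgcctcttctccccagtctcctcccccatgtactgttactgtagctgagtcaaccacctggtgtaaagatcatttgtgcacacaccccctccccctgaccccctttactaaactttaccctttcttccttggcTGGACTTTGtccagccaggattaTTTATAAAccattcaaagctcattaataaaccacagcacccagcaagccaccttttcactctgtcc
Slc3a2, chr1:215048065-215048314, minus strand: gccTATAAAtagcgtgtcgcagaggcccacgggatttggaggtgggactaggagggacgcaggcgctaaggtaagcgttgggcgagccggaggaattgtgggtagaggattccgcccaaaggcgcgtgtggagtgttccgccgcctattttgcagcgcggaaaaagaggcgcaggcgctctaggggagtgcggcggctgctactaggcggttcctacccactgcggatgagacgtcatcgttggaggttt
The Slc3a1 window held CAAAGTCCA in its reverse form TGGACTTTG, which starts 89 bases before the start site, and overlapping TATA matches of both strands from 66 bases before it. The Slc3a2 window printed, the upstream of 2 in the table, held 1 TATA match 247 bases before its start and 23 CG dinucleotides, and its other window held 14 and no match to either motif. The Slc3a1 window had 2, beside a median of 5 over the 33469 windows in the table. Of all windows 0.338% held CAAAGTCCA and 12.9% TATAAA on either strand. RefSeq windows were found for 7 of the 9 genes, in 8 windows because Slc3a2 has 2. Slc3a1 alone of these held CAAAGTCCA, and Slc6a19, Slc3a2 and Slc3a1 held TATAAA. A match describes the letters only. The gene of the factor itself, Hnf4a, had a difference of -0.22 ± 0.12 (limma adjusted p = 0.378).

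Slc7a13, a light subunit for aspartate, glutamate and cystine that pairs with Slc3a1 in the straight segment of the proximal tubule, ranged over 3.22 log2 units among the controls, beside a difference between the group means of -0.16. Its brightest probe had levels of 4.30, 3.80 and 4.56 in NDMA animals, against 5.78, 4.79 and 2.57 in controls. The controls thus lay both above and below all NDMA animals, with control 1 highest and control 3 lowest. The linear signal ranged 1.69-fold among NDMA animals and 9.30-fold among controls. The second Slc7a13 probe had 1.60, 1.10 and 1.92 in NDMA animals and 3.19, 2.15 and 0.03 in controls, and placed the 6 animals in the same order. The ranges of its linear signal were 1.77-fold for NDMA and 8.98-fold for controls, and the probes correlated with r = 0.998 over the 6 arrays, on which both were measured. The difference of the brightest probe was -0.16 ± 0.78 (limma adjusted p = 0.929), with an interval from -2.04 to 1.71 that holds large differences of either sign. Its sign turned without control 1 (0.54), without control 2 (0.043) and without NDMA animal 2 (0.047), and it was -1.07 without control 3 (adjusted p = 0.237). The second probe turned without control 1 (0.45) but was at -0.070 without control 2 and -0.029 without NDMA animal 2. The controls, all on slide 1, give this spread within 1 slide.

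**Figure D2:**
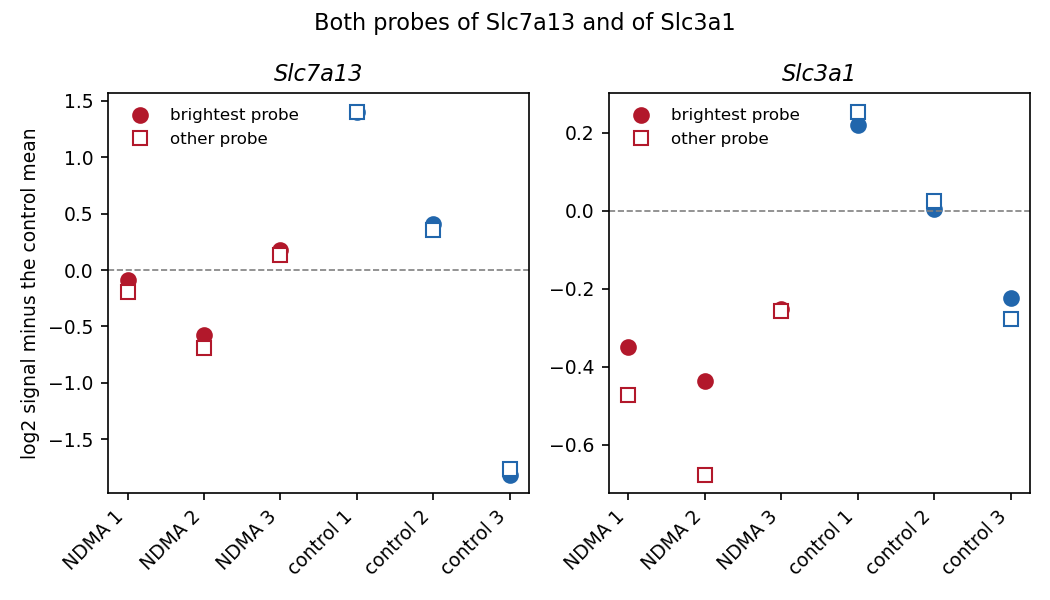
The log2 signal minus the mean of the 3 controls is plotted for each animal at both probes of Slc7a13 (left) and Slc3a1 (right), with NDMA in red and controls in blue, filled circles for the brightest probe and open squares for the other. The vertical axes differ: the brightest Slc7a13 probe runs from -1.81 in control 3 to 1.40 in control 1, and both probes give each animal nearly the same place.

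The spread between animals of 1 group was otherwise ordinary for these genes. The within-group SD of Slc7a13 was 1.20 on the log2 scale, and 159 of the 31915 features, 73 of them named genes, had a larger one. The other 8 genes had within-group SDs from 0.09 (Slc7a9) to 0.30 (Slc1a1), around the median of 0.15 over all features.

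**Figure D3:**
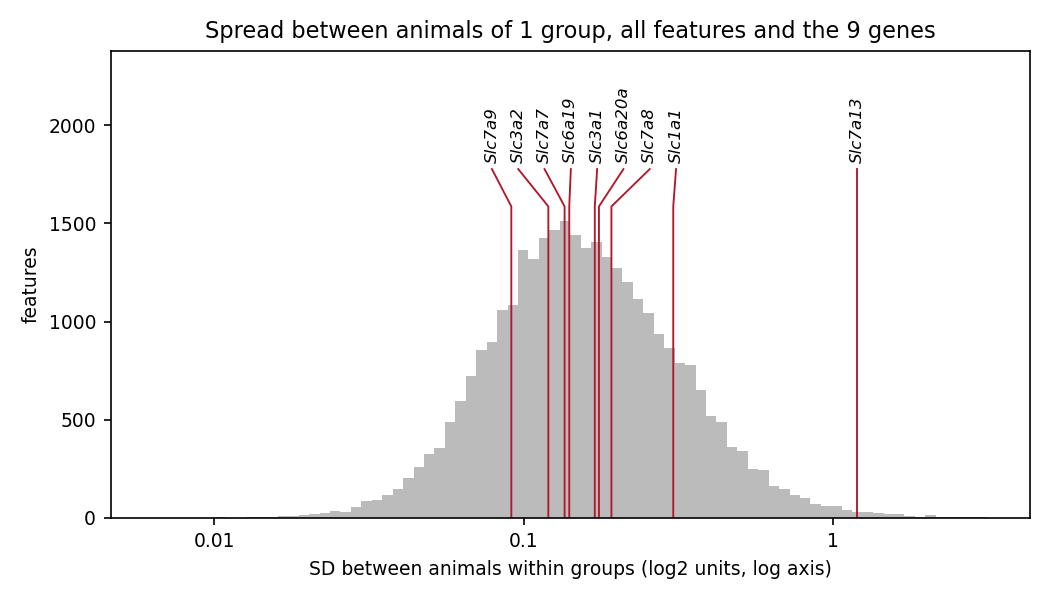
Grey bars count the features by their SD between animals within groups (log axis, log2 units), and red lines mark the 9 genes. Slc7a13 lies at 1.20 in the upper tail and the other 8 lie between 0.09 and 0.30.

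Slc6a19, the sodium-dependent carrier of neutral amino acids that is defective in Hartnup disorder, had levels of 3.60, 3.44 and 3.77 in NDMA animals and 3.77, 3.85 and 3.65 in controls. The groups overlapped, and the difference was -0.15 ± 0.12 (interval -0.43 to 0.12, limma adjusted p = 0.497). It was -0.071 without NDMA animal 2, -0.24 without NDMA animal 3 and -0.10 with quantile normalisation. In the kidney Slc6a19 reaches the brush border with the help of Cltrn, also called collectrin. Cltrn had levels of 7.23, 7.11 and 7.16 in NDMA animals and 7.43, 7.62 and 7.52 in controls, which did not overlap, with a difference of -0.36 ± 0.09 (adjusted p = 0.102). With limma's trended and robust variance, the only alternative in which Cltrn passed, its adjusted p was 0.0335. The other Cltrn probe differed by -0.28 ± 0.08 (limma adjusted p over all probes 0.129). Of the 5 brush border partners listed (among them Cltrn, the peptidase Anpep and the scaffolds Pdzk1 and Nherf1), 0 rose and 0 fell by limma, with a median difference of -0.32. An unadjusted p under 0.05 was found for 2 of them, against 18.8% of all features.

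Slc6a20a, the carrier of proline and other imino acids, was read by probes that disagreed in sign. The brightest had levels of 1.83, 1.50 and 1.58 in NDMA animals and 1.64, 1.98 and 1.75 in controls, a difference of -0.15 ± 0.13 (limma adjusted p = 0.567). The second had -1.73, -1.80 and -1.59 in NDMA animals and -1.88, -1.54 and -1.98 in controls, a difference of 0.09 ± 0.14 (adjusted p over all probes 0.746). Both sets of groups overlapped, both intervals held 0, the brightest probe ran from -0.25 to -0.056 without 1 animal, and NDMA animal 1 alone differed from the controls of its slide by 0.042, so no direction is given for this gene.

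On the basolateral side, Slc3a2 is the heavy subunit of Slc7a7 and Slc7a8 and, as CD98, is also found on activated leukocytes. Its level was 4.42, 4.13 and 4.41 in NDMA animals and 4.46, 4.52 and 4.55 in controls. The groups did not overlap by a narrow margin, and NDMA animal 2 was the lowest. The difference was -0.19 ± 0.10 (interval -0.44 to 0.07, limma adjusted p = 0.381), and it was -0.087 for NDMA animal 1 against the controls of its slide and -0.093 without NDMA animal 2.

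Slc7a7, which releases basic amino acids to the blood in exchange for neutral ones and is mutated in lysinuric protein intolerance, had levels of 2.65, 2.40 and 2.73 in NDMA animals and 2.80, 2.85 and 2.96 in controls. All NDMA animals lay below all controls. The difference was -0.28 ± 0.11 (interval -0.55 to -0.01, unadjusted p = 0.0460, limma adjusted p = 0.258), and without NDMA animal 2, again the lowest, it was -0.18. Macrophages are known to express Slc7a7 too, and macrophage markers rose in these NDMA cortices, as described further on, so a tubular and a leukocyte share of the Slc7a7 signal cannot be told apart here.

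Slc7a8, the exchanger of neutral amino acids, had levels of 4.89, 4.37 and 4.65 in NDMA animals and 5.02, 4.95 and 4.87 in controls by its brightest probe, and 3.02, 2.64 and 2.92 against 3.23, 3.15 and 3.02 by the other. NDMA animal 1 lay among the controls and NDMA animals 2 and 3, both on slide 2, below them. The differences were -0.31 ± 0.14 (limma adjusted p = 0.300) and -0.27 ± 0.12 (adjusted p over all probes 0.309). The brightest probe differed by -0.060 for NDMA animal 1 against the controls of its slide, by -0.18 without NDMA animal 2 and by -0.44 without NDMA animal 1, which leaves only slide 2 animals in the treated group.

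**Figure D4:**
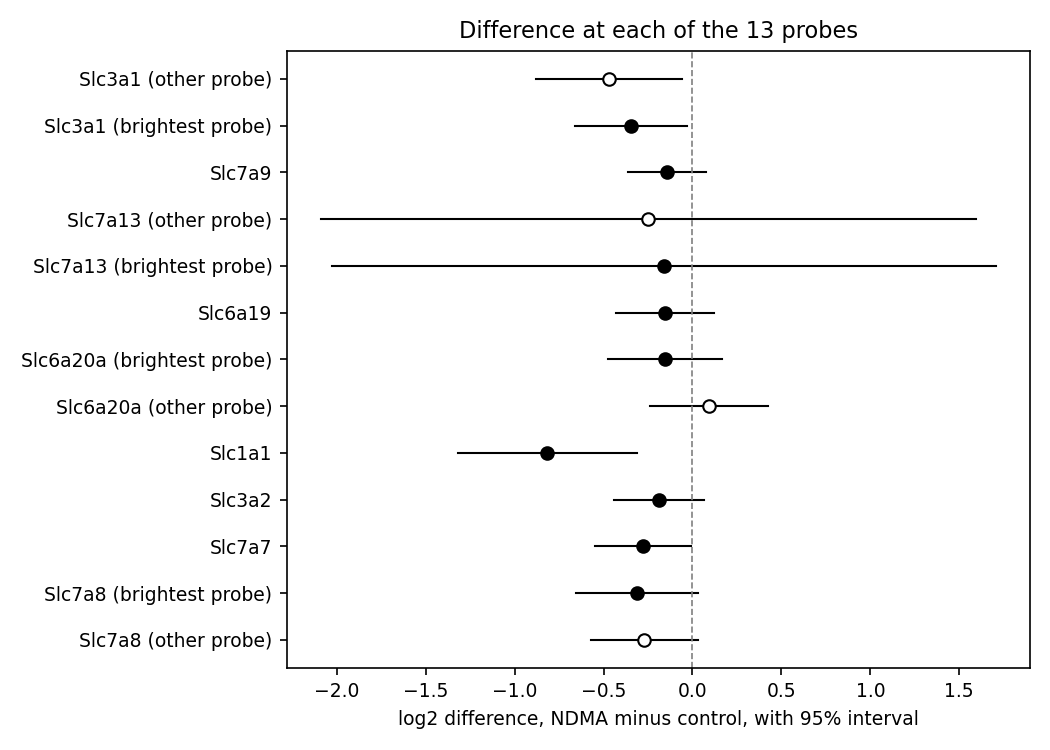
The log2 difference of NDMA minus control (circles, filled for the probe that represents the gene) and its 95% interval (lines) are given for each of the 13 probes. The difference lies below 0 at 12 of the 13 probes, Slc1a1 lies farthest from 0 at -0.82, and the intervals of Slc7a13 are the widest.

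Of 29 other carriers of amino acids and small peptides listed, 23 were measured by their brightest probes. Of these, 0 rose and 0 fell by limma, and 7 had an unadjusted p under 0.05, against 18.8% of all features. The median difference was -0.11, or 0.043 for NDMA animal 1 alone against the controls of its slide. Slc1a3, a glutamate and aspartate carrier of the same family as Slc1a1, had the highest difference of the list. Its brightest probe had levels of -1.12, -0.98 and -1.97 in NDMA animals and -2.33, -2.07 and -2.25 in controls, without overlap, a difference of 0.86 ± 0.26 (adjusted p = 0.167). Its other 3 probes differed by 0.89, 0.90 and 1.09, and the last of these passed over all probes (adjusted p = 0.0202). That probe was dim, with levels of -4.50, -4.73 and -4.95 in NDMA animals and -5.93, -5.91 and -5.61 in controls. Slc6a18, a brush border carrier related to Slc6a19 that transports glycine and alanine, had levels of 4.06, 3.98 and 4.26 in NDMA animals and 4.94, 4.72 and 4.39 in controls, without overlap. Its difference was -0.58 ± 0.16 (adjusted p = 0.133), and its other two probes differed by -0.58 and -0.55. Slc6a12, a betaine and GABA carrier, had levels of -1.93, -1.84 and -1.59 in NDMA animals and -2.28, -2.24 and -2.42 in controls, a difference of 0.53 ± 0.11 (adjusted p = 0.0744). The basolateral carrier of aromatic amino acids Slc16a10 differed by -0.24 ± 0.17 (adjusted p = 0.477). Slc7a5, the light subunit that Slc3a2 serves in dividing cells, differed by -0.26 ± 0.23 (adjusted p = 0.569) and was well above background on 2 of the 3 NDMA arrays.

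Genes of the cell's response to scarce amino acids, which are the sensor kinase Eif2ak4, the transcription factor Atf4 and genes downstream of it, were set beside the carriers, since Slc3a2 is a known target of ATF4. Of 13 measured by their brightest probes, 1 rose and 0 fell, where 2.52% and 0.476% of all features did. An unadjusted p under 0.05 was found for 6, against 18.8% of all features. Without overlap 4 lay higher and 2 lower, the latter against 16.5% of all features. The share of all features that lay higher without overlap was not counted. The median difference was 0.10. The one that rose was Mthfd2, a mitochondrial enzyme of folate metabolism, at 0.99 ± 0.17 (1.98-fold, adjusted p = 0.0399). Its adjusted p was 0.0322 without control 2 and ran from 0.0535 to 0.136 without any other 1 animal. Its other probes, all dimmer, differed by 1.19, 1.29, 1.48 and 1.77. Their limma adjusted p over all probes was 0.0418, 0.0268, 0.131 and 0.0119. Atf4 itself differed by 0.043 ± 0.10 (adjusted p = 0.838) and Asns, asparagine synthetase, by 0.47 ± 0.18 (adjusted p = 0.236), or by 0.29 without NDMA animal 2. Trib3, a pseudokinase, differed by 0.75 ± 0.16 (adjusted p = 0.0703). Of the 13 genes, 4 had a difference below 0, where 58.7% of all features did. Among these 4, Psat1 differed by -0.40 ± 0.09 (limma adjusted p = 0.0862), and by -0.62 at its other probe. Sesn2 differed by -0.23 ± 0.09 (limma adjusted p = 0.234). Psat1 and Sesn2 were those that lay lower without overlap. The probes of Chac1, a glutathione-degrading enzyme, gave different sizes. The brightest gave 0.097 ± 0.088 (adjusted p = 0.580), and the other gave 1.32 ± 0.16 and passed over all probes (adjusted p = 0.0141). The probe that passed was dim, with levels of -4.50, -4.13 and -4.43 in NDMA animals and -5.96, -5.45 and -5.63 in controls. The brightest lay from -1.12 to -0.88.

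The proximal tubule is the main site of these carriers. Of 20 measured markers of it 17 had a difference below 0, where 58.7% of all features did. For 12 markers NDMA lay below control without overlap, against 16.5% of all features. By limma 0 markers rose and 1 fell, where 2.52% and 0.476% of all features did. The median difference of the markers was -0.26. The one that fell was Lrp2, the endocytic receptor megalin, at -0.57 ± 0.10 (limma adjusted p = 0.0448), with adjusted p from 0.0576 to 0.145 when each animal was left out in turn. Its other probe differed by -0.55 ± 0.13 (adjusted p over all probes 0.0945). With quantile normalisation 0 of the 20 markers fell, and with normexp background correction and the 75th percentile 2 did. Slc34a1, the phosphate carrier of the brush border, differed by -0.26 ± 0.08 (adjusted p = 0.173). The marker that lay higher without overlap was Slc13a1, the sulfate carrier of the brush border, at 0.49 ± 0.16 (adjusted p = 0.189), with 0.39 and 0.35 by its other probes. The summed signal of the 20 markers was 2534 to 2947 times the array's 75th percentile in NDMA animals and 3231 to 3531 in controls. That of the 9 carriers ranged from 296.2 to 345.6 and from 340.4 to 468.6. Bright probes weigh most in such sums, and Slc3a1, at levels of 7.48 to 8.14, made up most of that of the carriers. With quantile normalisation the medians were -0.12 for the markers and -0.13 for the carriers. Whole cortex was measured, so fewer tubule cells and less RNA per cell cannot be told apart.

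Leukocyte markers moved the other way. Of 11 measured macrophage and dendritic cell markers 10 rose and 0 fell, where 2.52% of all features rose. The median difference of these markers was 1.23, with a summed signal of 268.6 to 294.6 in NDMA animals against 104.5 to 140.0 in controls. Most of that sum came from Lyz2, whose levels ran from 6.08 to 7.65. Cd68, a lysosomal protein of macrophages, rose 2.80-fold and Ptprc, the leukocyte antigen CD45, 2.45-fold (limma adjusted p = 0.00742 for each). Of 10 T and NK cell markers 8 rose and 0 fell, with a median of 1.30. With the slide as a block, which leaves NDMA animal 1 against the 3 controls, these medians were 1.13 and 1.25 and 0 markers passed in either list. Of 7 measured distal nephron and collecting duct markers and of 8 endothelial and podocyte markers, 0 rose and 0 fell. Of all features 2.52% rose and 0.476% fell. In these lists 1 and 0 markers had an unadjusted limma p under 0.05, against 18.8% of all features. The medians were -0.15 (-0.00072 with quantile normalisation) and 0.0026. All 11 macrophage markers were above background on all arrays, none at 0, and the part of these shifts in the levels of the carriers was not tested.

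**Figure D5:**
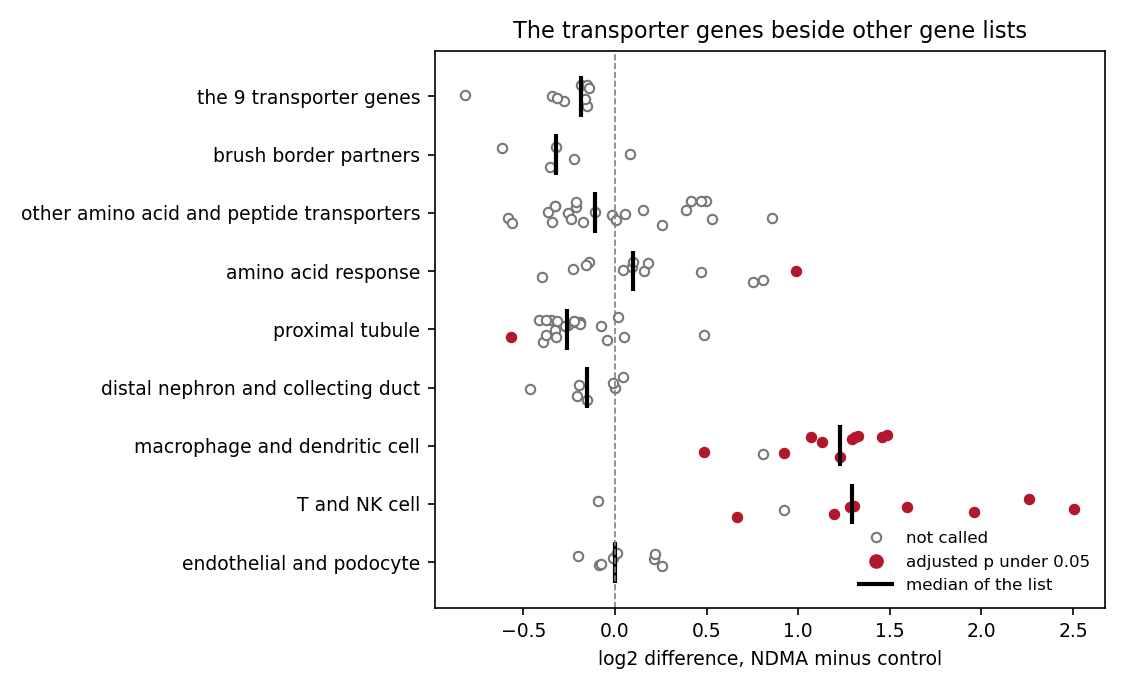
Each circle is the log2 difference of NDMA minus control of 1 gene, red where the adjusted p was under 0.05, and black bars are the medians of the lists. The 9 transporter genes lie from -0.82 to -0.14 with a median of -0.19, near the proximal tubule markers at -0.26, while the macrophage and T cell lists lie at 1.23 and 1.30.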

How the data were processed

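Cy3-labelled RNA of the renal cortex of 6 rats was read on Agilent arrays, with groups taken from the sample titles. Agilent Feature Extraction is given as 10.7 in the submitters' processing notes and as 10.7.1.1 in the headers. Its processed intensity has the background removed and spatial trends taken out, per the file headers; the deposited median and background intensities are unprocessed. The deposited 0 or 1 flags of a spot (other values) mark detection and outliers. A ratio table by the authors gave, within a log2 gap of 0.00174 for values above 0.1, the processed intensity over its array's 75th percentile, so scale and direction are known. Column medians were 0.115, 0.112 and 0.114 for NDMA and 0.112, 0.110 and 0.114 for controls.

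The log2 of the processed intensity was set relative to the 75th percentile of its array, taken over the 61657 non-control probes. Outlier spots were left out (10 values among the features tested, none of the 9 genes). Probes well above background on all 3 arrays of a group were kept (43118), and each gene was read by its brightest probe. Names came from RefSeq (GRCr8), where 27348 of 29123 NM accessions matched. The array's annotation names build rn4, so the only coordinates given are those of the RefSeq windows printed. The groups were compared by limma 3.58.1 (R 4.3.3; two-sided; residual df 4, prior df 2.36), Benjamini-Hochberg threshold 0.05, over features and again over probes. An exact permutation test of 3 against 3 cannot go below p = 0.1. Between 43016 and 46248 probes per array were well above background, and the number of arrays limits the precision.

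The carriers and the lists were chosen with earlier results of these data known. Named were the 9 genes, others always (among them Cltrn, Slc7a5, Slc16a10, Atf4, Asns, Slc34a1, Lrp2, Ptprc and Cd68) and, per list, up to 3 called genes in each direction or else the 2 with the smallest p, of which some are not reported here. Hnf4a, Slc1a3, Trib3, Chac1, Psat1, Sesn2, Slc13a1 and the genes like Slc7a13 were named after their values were seen. Alternatives changed the background correction, normalisation, filter, flags, variance model, slide, replicate number, single animals, choice of probe and source table.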

Additional observations from a re-analysis of the deposited data

How the results depend on the processing

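Over the 21 alternatives, 0 of the 9 carriers passed in each, with adjusted p from 0.0678 (Slc1a1 with normexp and the 75th percentile) upward, and the differences of the carriers other than Slc6a20a and Slc7a13 lay below 0. With the slide as a fixed block and on slide 1 alone the difference is that of NDMA animal 1 against the 3 controls. The fixed-block fit still draws on the spread between NDMA animals 2 and 3. On slide 1 alone there is no spread between treated animals, and NDMA animal 1 is assumed to vary like the controls. The differences of Slc1a1 ran from -1.28 to -0.59 over the alternatives. Slc6a20a was at 0.042 with the slide as a fixed block and 0.042 on slide 1 alone. Leaving out 1 animal gave -1.07 to 0.54 for Slc7a13 and -0.015 to 0.0995 for Atf4, which was at -0.020 with normexp and the 75th percentile. The median of the 9 carriers then ran from -0.321 (without NDMA animal 3) to -0.144 (without NDMA animal 2). The counts of features and of probes called, 957 and 1289, were 371 and 488 with no filter on dim probes, 67 and 82 with the slide as a fixed block, and 0 and 0 on slide 1 alone, where limma had 3502 features at an unadjusted p under 0.05. Without 1 animal they ran from 364 to 749 and from 464 to 987. With the replicate number as a block they were 351 and 511, and 0 of the 9 carriers passed. The numbers do not pair the samples: the deviations of same-numbered animals correlated at 0.04, -0.05 and 0.03. With normexp and the 75th percentile 66.7% of the called features were higher, against 84.1%. The causes of these shifts were not tested. Normexp was run on the median signal, an alternative chosen after seeing the data. Normexp on the mean signal was not run.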

Other observations

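Because both Slc7a13 probes placed the animals alike, the named genes whose level followed Slc7a13 over the 6 animals were listed, a comparison chosen after the values were seen and given with no test. Among 11762 other named genes above background on all arrays, 72 (0.612%) had a Pearson r with Slc7a13 of at least 0.9, and 63 (0.536%) had -0.9 or lower. Of these, 19 also had a slope of at least 0.5 log2 units for each unit of Slc7a13, and 1 a slope of -0.5 or less. All share the same 6 arrays, and control 1 and control 3 are the ends of the Slc7a13 range. Over the other 4 animals r ran from 0.318 to 0.989 for the 19 genes, with a median of 0.808, and was at least 0.9 for 7 of them. The counts at 0.9 and at -0.9, 72 and 63, were close to each other. How many unrelated genes would reach such r over 6 animals was not tested. The 19 genes are therefore not taken as a set that varies together.

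Mep1b, a metalloprotease of the brush border, had levels of 2.78, 2.73 and 3.04 in NDMA animals and 4.64, 3.53 and 1.88 in controls (r = 0.962, Spearman rho = 1, and r = 0.863 over the 4 animals without controls 1 and 3). Hnmt, which inactivates histamine, had -0.29, -1.12 and -0.09 in NDMA animals and 1.75, 0.51 and -1.30 in controls (r = 0.935, and 0.988 over the 4 animals). Agt, the angiotensin precursor, had 0.22, -0.46 and 0.07 in NDMA animals and 2.42, 1.05 and -0.89 in controls (r = 0.925, and 0.887 over the 4). Cish, an inhibitor of cytokine receptor signalling through STAT proteins, had 0.25, -1.03 and 0.86 in NDMA animals and 1.36, 0.88 and -1.44 in controls (r = 0.933, and 0.971 over the 4). In each of these 4 genes, all chosen for following Slc7a13, control 1 was highest and control 3 lowest of the 6 animals. The carrier genes Slco4c1, Slco1a6, Slc22a24 and Slc22a7 followed with r = 0.956, 0.927, 0.923 and 0.916. Over the 4 animals r was 0.952 for Slco4c1 and 0.967 for Slco1a6, but 0.535 for Slc22a24 and 0.509 for Slc22a7. The relations of Slc22a24 and Slc22a7 thus rest on controls 1 and 3. Neither Slc3a1, with r = 0.666 and rho = 0.657 to Slc7a13, nor any other of the 9 carriers was among the 19.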
